A study of Mus musculus with 6 samples.

Results

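The 10 genes described here encode the Nodal, Lefty and BMP-Id signalling components that are prominent in mouse embryonic stem cells (mESCs), namely Nodal, Lefty1, Lefty2, Tdgf1, Smad7, Skil, Bmp4, Id1, Id2 and Id3. They are listed by symbol, with earlier results of these data known, and are 10 of the 39017 genes in the deposited count tables. PolyA RNA-Seq was measured in 3 groups of 2 libraries. The untreated and auxin groups were Pol II degron mESCs, a V6.5 line with a mAID-GFP tag on the Pol II subunit RPB1 (the product of Polr2a) and an OsTIR1 cassette at Rosa26, and both groups had received 1 μg/ml doxycycline for 12 h. The auxin group then received 500 μM auxin (indole-3-acetic acid) for 6 h, which directs the tagged RPB1 to the proteasome. The third group was wild-type V6.5 mESCs, which carry no tag, and the labels do not name for it whether doxycycline was given. The degron cells are a derived line that was selected after transfection, so a difference between them and the wild-type cells includes anything else that separates the lines. All cells were grown with LIF and serum on irradiated mouse embryonic fibroblasts and, per the methods, taken through passages before harvest, for which removal of the feeders is not spelled out. The study speaks of biological replicates, but neither it nor the labels state that the libraries of a group came from separate cultures, so the p-values measure the spread between these libraries, which may be technical.

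Nodal is a secreted TGF-beta family ligand that acts through activin receptors and Smad2/3, with Tdgf1 (Cripto) as its membrane-bound co-receptor. Lefty1 and Lefty2 are secreted inhibitors of Nodal and are themselves induced by it, and Smad7 and Skil (SnoN) are intracellular inhibitors induced by the same signals, so the pathway is rich in negative feedback. BMP4 acts through Smad1/5, whose best known targets in mESCs are the Id genes. The Id proteins lack a DNA-binding region and hold E proteins in inactive pairs, and together with LIF they are known for sustaining self-renewal.

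The start-site windows of 4 of these genes are printed because their transcripts took different courses in the comparisons: Id3 was the member called in both comparisons, Id2 in neither, and Nodal and Tdgf1 are the ligand and co-receptor. Each runs from 250 bases before to 50 bases after the RefSeq start site on GRCm38.p6 and is written 5′ to 3′ on the gene's strand. Capitals mark the Smad box GTCT read on either strand (AGAC on the other) and the GC-rich Smad1/5 element GGCGCC. The Id3 window is chr4:136143572-136143871 on the plus strand, that of Id2 is chr12:25096043-25096342 on the minus strand, that of Nodal is chr10:61417722-61418021 on the plus strand and that of Tdgf1 is chr9:110946109-110946408 on the minus strand.
Id3: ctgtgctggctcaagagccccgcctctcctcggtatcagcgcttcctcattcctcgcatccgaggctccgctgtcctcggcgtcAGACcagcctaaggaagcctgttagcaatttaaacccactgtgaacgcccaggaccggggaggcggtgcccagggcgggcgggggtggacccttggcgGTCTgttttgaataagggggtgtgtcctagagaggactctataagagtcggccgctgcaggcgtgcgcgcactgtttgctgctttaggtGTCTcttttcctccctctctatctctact
Id2: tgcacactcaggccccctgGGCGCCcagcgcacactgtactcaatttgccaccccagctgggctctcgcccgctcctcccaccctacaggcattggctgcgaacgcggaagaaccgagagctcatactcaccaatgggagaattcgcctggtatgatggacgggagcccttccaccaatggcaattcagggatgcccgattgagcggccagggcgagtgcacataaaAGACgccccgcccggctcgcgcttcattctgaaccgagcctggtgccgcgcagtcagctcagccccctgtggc
Nodal: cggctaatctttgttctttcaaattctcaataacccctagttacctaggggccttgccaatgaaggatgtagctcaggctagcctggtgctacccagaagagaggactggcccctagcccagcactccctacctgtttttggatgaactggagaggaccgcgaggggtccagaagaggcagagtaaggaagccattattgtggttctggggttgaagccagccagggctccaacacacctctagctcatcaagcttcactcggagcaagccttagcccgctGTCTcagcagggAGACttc
Tdgf1: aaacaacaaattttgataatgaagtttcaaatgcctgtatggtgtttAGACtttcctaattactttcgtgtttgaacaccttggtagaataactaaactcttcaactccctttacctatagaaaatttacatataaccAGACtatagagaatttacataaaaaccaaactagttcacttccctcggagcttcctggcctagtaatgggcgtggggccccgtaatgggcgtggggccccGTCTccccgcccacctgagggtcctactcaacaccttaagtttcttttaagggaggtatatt

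RefSeq windows of 5 of the 10 genes were searched, the remaining one being that of Bmp4 (chr14:46390620-46390919, minus strand). Windows on chromosome 18, where Smad7 lies, were left out of the search for the members. GGCGCC stood in the Id2 window, once, 231 bases before the start site, and in none of the other 4, against 11.9% of 32851 start-site windows of the same length. The Smad box was found 3 times for Id3 and Tdgf1, 2 times for Nodal and Bmp4, and once for Id2, but these 4 letters are present in 88.0% of all windows. An E-box (CANNTG, read on both strands) occurred 3 times for Bmp4, 2 times for Tdgf1 and once for Id2, with no match for Id3 or Nodal, and 72.3% of all windows held one. The GC content was 41.7% for Tdgf1 and between 54.0% and 64.0% for the other 4. The Id2 and Id3 windows lie within the gene spans printed below, so the bases before their RefSeq start sites belong to the annotated genes. These matches describe the letters of the windows and say nothing of binding.

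Total counts lay between 14094022 and 15358714 per library. Each of the 10 genes passed the filter on low counts in both comparisons, and the relative counting error of single values ran from 0.761% (Tdgf1, 17275 counts) to 9.25% (Id3, 117 counts), which covers counting error only. Polr2a, whose protein auxin removes, had 6623 and 6568 counts in the untreated libraries, 10396 and 10663 after auxin and 6866 and 7129 in wild-type cells. Its mRNA was higher after auxin, with a log2 fold change of 0.57 (SE 0.07, edgeR adjusted p = 0.00117), so mRNA counts do not check the loss of the protein. Of 8 pluripotency markers, 8 exceeded 10 CPM in each group. The wild-type libraries are held in a separate table and their extraction record mentions retinas, yet the photoreceptor genes Crx and Rcvrn had 0 counts in all 6 libraries, and 8 retinal markers summed to 1.62 to 1.82 CPM in wild-type and 2.58 to 3.49 CPM in degron libraries. In bulk RNA, fewer cells of a type and less RNA per cell cannot be told apart.

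Levels are given as CPM, the library-size-scaled count after TMM scaling over the 6 libraries, and only levels per kilobase of exon (CPM per kb) are compared between genes. The length is the union of all annotated exons of a gene, so the order between genes depends on the annotation. Fold changes are relative to the bulk of mRNAs. The scaling matters, because the mRNAs of the mitochondrial genome, transcribed by a separate polymerase, were called higher in wild-type libraries in 13 of 13 cases (median log2 fold change 2.24). Scaling to them shifted the log2 fold changes by a median of −2.09 in that comparison and of −0.17 in the auxin comparison. Directions in the wild-type comparison are therefore stated on the TMM scale, as differences from the median gene, and the genes whose sign flips on the mitochondrial scale are named there.

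In the untreated degron cells the co-receptor was by far the most abundant of these transcripts. Per kilobase, Tdgf1 (ENSMUSG00000032494, chr9:110939603-110946158) lay between 204 and 210 CPM per kb, and Id1 (ENSMUSG00000042745, chr2:152736251-152737410) followed at 40.4 to 42.3 CPM per kb. Lefty1, Id3 and Nodal came next, at means of 19.2, 18.2 and 18.1 CPM per kb, and their libraries overlapped. Smad7, Skil, Bmp4 and Lefty2 had means between 9.38 and 12.7 CPM per kb, each overlapping its neighbour in this order, and Id2 was lowest at 5.22 to 5.61 CPM per kb. After auxin the order began with Tdgf1 (171 CPM per kb), Id1 (47.4 CPM per kb) and Id3 (23.1 CPM per kb), and Smad7, Nodal and Lefty1 shared the next place with overlapping libraries between 14.2 and 15.3 CPM per kb. In wild-type cells the order was different. Tdgf1 stood at 458 CPM per kb, followed by Lefty1 at 85.1, Smad7 at 42.7, Lefty2 at 32.5 and Nodal at 27.5 CPM per kb, none of these overlapping its neighbour. Id1 came after them, and Id2 and Id3 were last, with overlapping libraries between 4.56 and 5.90 CPM per kb.

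**Figure D1:**
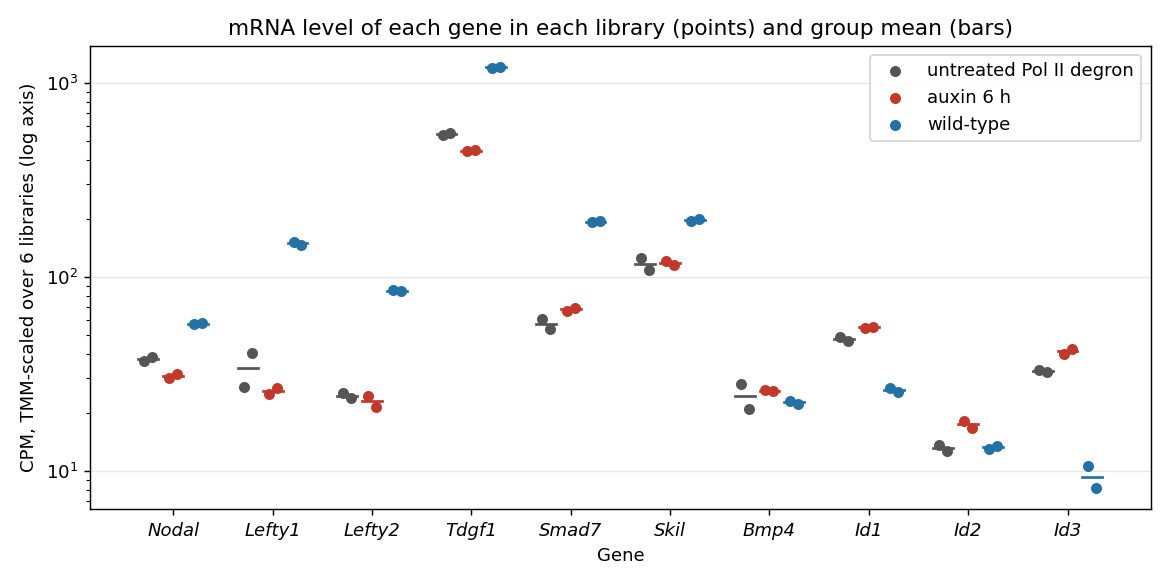
Level of each of the 10 genes in CPM after TMM scaling over 6 libraries (vertical log axis), with 1 point per library and a bar at each group mean of 2 libraries. The wild-type points of Lefty1, Lefty2, Tdgf1 and Smad7 lie well above the untreated points and those of Id1 and Id3 below them on this scale, while the auxin points lie close to the untreated points. On a scale set by mitochondrial mRNAs the wild-type differences of Nodal, Lefty2, Tdgf1, Smad7, Skil and Id2 change sign.

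The first comparison asked what 6 h of Pol II degradation did to the steady-state mRNA of these genes, relative to the rest of the transcriptome. Id3 was higher after auxin and was the only member whose change passed the test, by 1.28-fold. Nodal, Lefty1 and Tdgf1 had lower estimates and Smad7, Id1 and Id2 higher ones, none of them past an adjusted p of 0.05 in this fit. With all 3 groups in 1 edgeR fit, Nodal (adjusted p = 0.0323), Smad7 (0.0388) and Id2 (0.0433) passed, as did Tdgf1, and without untreated replicate 1 Nodal (0.0224), Lefty1, Tdgf1, Smad7 (0.00114), Bmp4 and Id2 (0.0122) passed. In the edgeR quasi-likelihood test with Benjamini-Hochberg adjustment over 16128 genes, 1 of 10 members was called higher, where 2.56% of all tested genes were, and 0 were called lower, where 1.64% were. DESeq2 called 0 higher and 1 lower, the latter being Tdgf1 (log2 fold change −0.27, adjusted p = 0.0225). At an unadjusted p under 0.05, 4 members were higher and 3 lower, against 10.7% and 9.38% of all genes. No member changed over 2-fold. Of all genes, 1.49% were called higher and 0.0434% lower at an adjusted p under 0.05 with a change over 2-fold. Untreated and auxin libraries did not overlap for 7 of the 10 members, against 50.8% of all genes. The median log2 fold change was 0.07 over the members and −0.0004 over all genes.

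The ligand Nodal (ENSMUSG00000037171, chr10:61417972-61425338) had 532 and 565 counts without auxin and 481 and 492 counts with it. Both auxin libraries lay below both untreated ones, at 31.0 ± 1.12 CPM against 38.0 ± 1.23 CPM (SD, n = 2 each). The log2 fold change was −0.28 (SE 0.09, 95% interval −0.46 to −0.09), with an edgeR adjusted p of 0.0909. The auxin libraries of Tdgf1 also lay below the untreated ones, with 7676 and 7989 counts untreated and 7079 and 6994 after auxin. Its level was 542 ± 9.83 CPM and then 448 ± 5.24 CPM, and its log2 fold change of −0.26 (SE 0.07, 95% interval −0.41 to −0.11) had an edgeR adjusted p of 0.0549. Tdgf1 was the member nearest to the threshold without passing it, and the call depended on the setting. It passed with DESeq2, with robust dispersions (adjusted p = 0.0446), with all 3 groups in the edgeR fit (adjusted p = 0.00767) and with the replicate number as a block. It did not pass with the other scalings and filters, among them mitochondrial scaling (edgeR adjusted p = 0.234) and no filter (0.113). With libraries left out in turn, its estimate stayed between −0.28 and −0.24.

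Lefty1 (ENSMUSG00000038793, chr1:180935022-180938400) was the most variable member in the untreated group, with 390 and 588 counts, and had 398 and 415 counts after auxin. The spread of the untreated libraries, 33.8 ± 9.35 CPM, was wider than the distance to the auxin mean of 25.9 ± 1.29 CPM (SD, n = 2 each), although the groups did not overlap. Its log2 fold change was −0.37 (SE 0.15, 95% interval −0.68 to −0.05, edgeR adjusted p = 0.174). The value depended on which untreated library was used: without untreated replicate 1 the change was −0.63 (edgeR adjusted p = 2.33e-07), and without untreated replicate 2 it was −0.06 (adjusted p = 0.851). Lefty2 (ENSMUSG00000066652, chr1:180893108-180899103), its neighbour 35918 bases upstream on the same strand, had 362 and 345 counts untreated and 389 and 333 after auxin. These libraries overlapped, and the log2 fold change was −0.07 (SE 0.10, 95% interval −0.30 to 0.15, edgeR adjusted p = 0.759). The Lefty genes are close paralogs, and 5.85% of the 100-base stretches of Lefty1 transcripts and 3.86% of those of Lefty2 occur in the other, so a small part of their reads may have been assigned uncertainly.

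Among the intracellular inhibitors, Smad7 (ENSMUSG00000025880, chr18:75367529-75395935), which blocks receptor activation of Smads, had 867 and 785 counts untreated and 1070 and 1073 after auxin. Both auxin libraries were higher, at 68.2 ± 1.52 CPM against 57.2 ± 4.60 CPM, with a log2 fold change of 0.27 (SE 0.08, 95% interval 0.10 to 0.44) and an edgeR adjusted p of 0.0697. On the mitochondrial scale the Smad7 value was 0.095, and relative to the median gene on that scale 0.26. Skil (ENSMUSG00000027660, chr3:31095058-31122577), a co-repressor that binds Smads in the nucleus, had 1793 and 1581 counts untreated and 1916 and 1777 after auxin. Its groups overlapped, and the log2 fold change of 0.03 (SE 0.08, 95% interval −0.14 to 0.19, edgeR adjusted p = 0.897) turned to −0.15 on the mitochondrial scale.

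On the BMP side, Bmp4 (ENSMUSG00000021835, chr14:46383520-46390669) had 402 and 302 counts untreated and 415 and 401 after auxin, so that the groups overlapped. The log2 fold change was 0.11 (SE 0.13, 95% interval −0.16 to 0.38, edgeR adjusted p = 0.694), turning to −0.08 on the mitochondrial scale. It was 0.34 without untreated replicate 1 (adjusted p = 0.0368) and −0.10 without untreated replicate 2, so the direction rested on 1 library. Gm15217, annotated on the opposite strand at Bmp4, had at most 5 counts in any library.

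For each of the Id genes, both auxin libraries lay above both untreated libraries on the TMM scale. On the mitochondrial scale the log2 fold changes of Id1, Id2 and Id3 were 0.04, 0.25 and 0.19, none of them called. Relative to the median gene on that scale they were 0.21, 0.42 and 0.36. Id3 (ENSMUSG00000007872, chr4:136143497-136145755) had 474 and 469 counts untreated and 637 and 662 after auxin, or 32.7 ± 0.58 CPM against 41.3 ± 1.96 CPM (SD, n = 2 each). The libraries did not overlap, and the log2 fold change was 0.36 (SE 0.08, 95% interval 0.18 to 0.54, edgeR adjusted p = 0.0333). This call was lost with DESeq2 (adjusted p = 0.287), without the filter (0.144), on the mitochondrial scale (0.683), and without auxin replicate 1 (0.138) or auxin replicate 2 (0.289), while the estimate stayed between 0.19 and 0.40. Id2 (ENSMUSG00000020644, chr12:25093799-25097140) had the largest estimate of the 10 genes at 0.42 (SE 0.12, 95% interval 0.16 to 0.68), with 196 and 185 counts untreated and 290 and 258 after auxin, but an edgeR adjusted p of 0.0725. Id1 had 704 and 682 counts untreated and 874 and 854 after auxin. Its log2 fold change was 0.21 (SE 0.08, 95% interval 0.05 to 0.38, edgeR adjusted p = 0.130).

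**Figure D2:**
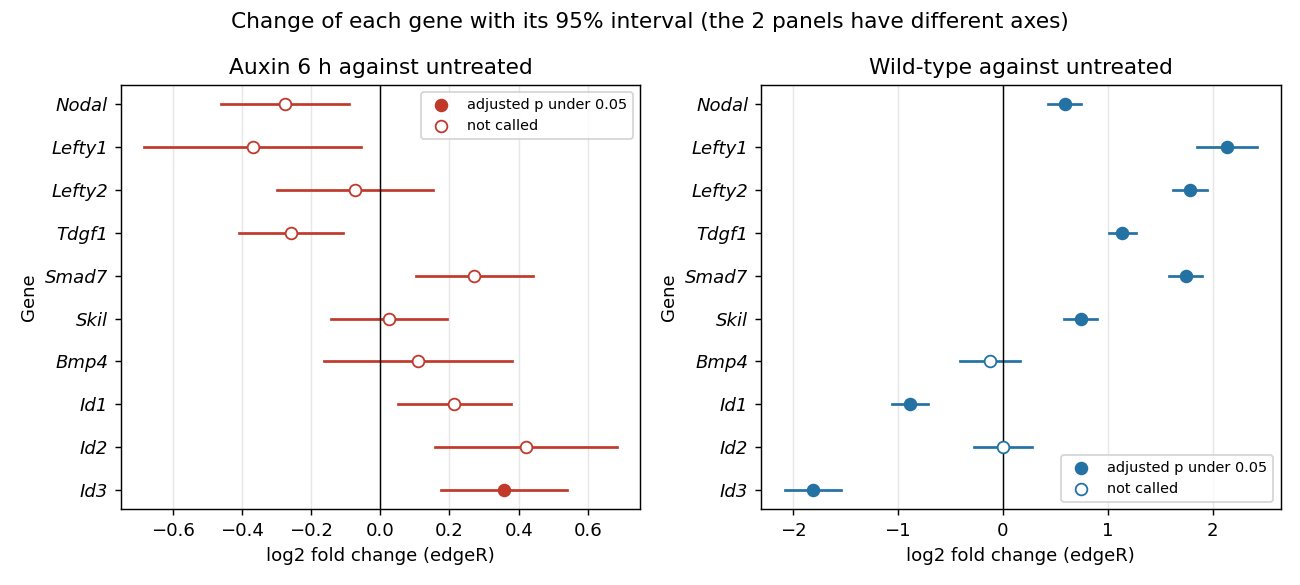
Log2 fold change of each of the 10 genes (horizontal axes, which differ between the panels) for auxin against untreated and wild-type against untreated, with lines for the 95% intervals of the edgeR fits on 2 libraries per group and filled points for an adjusted p under 0.05. Id3 is the single filled point in the auxin panel, and 8 points are filled in the wild-type panel, 6 higher and 2 lower on the TMM scale, with Nodal, Lefty2, Tdgf1, Smad7, Skil and Id2 changing sign there on a scale set by mitochondrial mRNAs, as Skil and Bmp4 do in the auxin panel.

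The second comparison asked how far the tagged, doxycycline-treated line already differed from wild-type cells before auxin. It used the same untreated libraries as the first, so the values of the comparisons are not independent. On the TMM scale, wild-type cells had more mRNA of Lefty1 (4.40-fold), Lefty2 (3.45-fold), Smad7 (3.35-fold), Tdgf1 (2.20-fold), Skil (1.67-fold) and Nodal (1.51-fold). They had less Id3 (3.50-fold lower) and Id1 (1.84-fold lower), whereas Bmp4 and Id2 did not pass the test. Thus 6 of 10 members were called higher, where 29.9% of the 15778 tested genes were, and 2 lower, where 30.7% were. With a change over 2-fold as well, 4 members were called higher and 1 lower, against 7.12% and 11.0% of all genes. Libraries did not overlap for 8 of the 10 members, against 81.0% of all genes, so the separation of the groups was common in this comparison. The median log2 fold change was 0.67 over the members and −0.01 over all genes. The wild-type and degron libraries come from separate tables, and the preparation of the libraries and the cell line cannot be told apart.

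Lefty1 rose from 390 and 588 counts in the untreated degron libraries to 2160 and 2104 in wild-type cells, or from 33.8 ± 9.35 CPM to 150 ± 3.76 CPM (SD, n = 2 each). Even the higher untreated library lay far below both wild-type libraries, and the log2 fold change was 2.14 (SE 0.13, edgeR adjusted p = 1.50e-07). Lefty2 went from 362 and 345 counts to 1209 and 1214 counts, with a log2 fold change of 1.79 (SE 0.07, edgeR adjusted p = 7.06e-09). Smad7 went from 867 and 785 counts to 2725 and 2775 counts (1.75 on the log2 scale, SE 0.07, edgeR adjusted p = 6.48e-09). These 3 inhibitors are each known targets of Nodal-type signals. On the mitochondrial scale the value of Lefty1 was 0.06 and no longer called, and those of Lefty2 and Smad7 were −0.31 and −0.36, while relative to the median gene they stayed at 2.17, 1.79 and 1.75.

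Tdgf1 had 7676 and 7989 counts in untreated and 16996 and 17275 in wild-type libraries, at 542 ± 9.83 CPM and 1202 ± 5.95 CPM (SD, n = 2 each). The log2 fold change was 1.14 (SE 0.06, 95% interval 1.01 to 1.27, edgeR adjusted p = 4.86e-08). A processed copy, Tdgf1-ps1, shares 86 of the 2715 100-base stretches of Tdgf1 transcripts and had 362 and 368 counts in untreated and 571 and 538 in wild-type libraries. Nodal had 532 and 565 counts and then 808 and 832 counts in wild-type cells, a log2 fold change of 0.59 (SE 0.07, edgeR adjusted p = 3.03e-05). Skil rose from 1793 and 1581 counts to 2745 and 2859 counts, a log2 fold change of 0.74 (SE 0.07, edgeR adjusted p = 5.46e-06). On the mitochondrial scale these 3 genes had −0.96, −1.50 and −1.36, and relative to the median gene on that scale 1.15, 0.60 and 0.74.

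Id3 fell from 474 and 469 counts to 150 and 117 counts in wild-type cells, from 32.7 ± 0.58 CPM to 9.37 ± 1.70 CPM (SD, n = 2 each). The log2 fold change was −1.81 (SE 0.12, 95% interval −2.08 to −1.54, edgeR adjusted p = 3.28e-07). Id1 fell from 704 and 682 counts to 378 and 368 counts, a log2 fold change of −0.88 (SE 0.08, edgeR adjusted p = 2.62e-06). Both directions held in each of the 13 alternatives. Id2 had 196 and 185 counts in untreated and 185 and 194 in wild-type libraries, and these overlapped, with a log2 fold change of 0.003 (SE 0.13, 95% interval −0.28 to 0.28, edgeR adjusted p = 0.985). Bmp4 had 402 and 302 counts against 327 and 317 counts, with a log2 fold change of −0.12 (SE 0.13, 95% interval −0.40 to 0.17, edgeR adjusted p = 0.450). On the TMM scale the untreated libraries set the direction. The Bmp4 value was −0.32 without untreated replicate 2 and 0.11 without untreated replicate 1. On the mitochondrial scale Bmp4 was −2.23 and called lower (edgeR adjusted p = 1.94e-32), and relative to the median gene on that scale it was −0.13.

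Ratios of counts within a library need no scaling between libraries. The 8 pairs follow no stated rule. Lefty2 to Id3, Smad7 to Id1 and Tdgf1 to Id1 each set a member called higher in wild-type cells over one called lower. Their separation therefore follows from those calls and adds no support to them. The ratio of Lefty1 to Nodal was 0.733 and 1.04 in the untreated libraries, 0.827 and 0.843 after auxin, and 2.67 and 2.53 in wild-type cells. Lefty2 to Id3 was 0.764 and 0.736 untreated, 0.611 and 0.503 after auxin and 8.06 and 10.4 in wild-type cells, the widest separation of the 8 ratios computed. Smad7 to Id1 stood at 1.23 and 1.15, then 1.22 and 1.26, and 7.21 and 7.54 in wild-type cells. Of its auxin values, 1.22 lay inside the untreated range and 1.26 just above it. Tdgf1 to Id1 was 10.9 and 11.7 in untreated libraries, 8.10 and 8.19 after auxin and 45.0 and 46.9 in wild-type cells. Within the Id family, Id1 to Id2 was 3.59 and 3.69 untreated, 3.01 and 3.31 after auxin and 2.04 and 1.90 in wild-type cells, and Id1 to Id3 was 1.49 and 1.45, then 1.37 and 1.29, and then 2.52 and 3.15. Lefty1 to Lefty2 was 1.08 and 1.70 untreated, 1.02 and 1.25 after auxin and 1.79 and 1.73 in wild-type cells, and Bmp4 to Nodal was 0.756 and 0.535, then 0.863 and 0.815, and then 0.405 and 0.381.

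**Figure D3:**
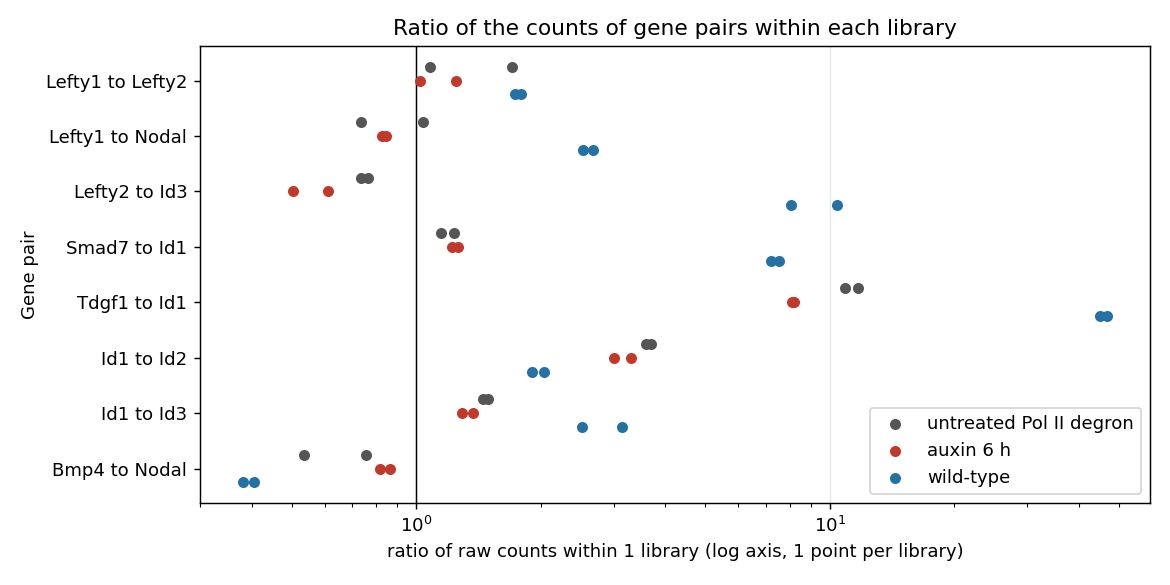
Ratio of raw counts of 8 gene pairs within each library (horizontal log axis, 1 point per library, vertical line at 1). The wild-type points of Lefty2 to Id3 (8.06 and 10.4), Smad7 to Id1 (7.21 and 7.54) and Tdgf1 to Id1 (45.0 and 46.9) lie to the right of all degron points. These pairs set a member called higher in wild-type cells over one called lower. The auxin points of Lefty2 to Id3 (0.611 and 0.503) and Tdgf1 to Id1 (8.10 and 8.19) lie to the left of both untreated points, though closer to them than the wild-type points do.

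The wild-type comparison also differed in markers of other cells, whose part in these results was not tested. Of 8 primitive endoderm markers 8 were called higher in wild-type cells by edgeR (5 by DESeq2), 6 of them over 2-fold, and their summed level was 105 to 110 CPM against 28.8 to 30.5 CPM untreated and 31.0 to 31.6 CPM after auxin. Most of that rise was Cubn, at 40.5 and 43.7 CPM in wild-type and 1.17 to 1.51 CPM in the degron libraries, while Gata4 was 17.3 and 18.8 CPM against 12.9 and 14.6 CPM untreated. The 6 mesendoderm markers summed to 12.4 to 13.5 CPM in wild-type, 17.2 to 26.3 CPM in untreated and 21.5 to 25.7 CPM in auxin libraries. Of 4 tested by edgeR in the wild-type comparison, 2 were called higher, both over 2-fold, and 1 lower, while DESeq2 called 1 higher and 1 lower. The median log2 fold change in edgeR was 0.73, so the lower sum came from T. This gene, a known target of Nodal and Wnt signals, had 0.423 and 0.559 CPM in wild-type and 11.4 and 18.4 CPM in untreated libraries, Eomes was 10.7 and 9.36 CPM against 4.26 and 5.57 CPM, and Evx1 had 0 counts in wild-type cells. Of 10 feeder fibroblast genes, which sum to 190 to 194 CPM in wild-type, 223 to 225 CPM in untreated and 245 to 277 CPM in auxin libraries, 8 were tested in each comparison. In wild-type cells edgeR called 2 higher and 4 lower, and DESeq2 called 0 higher and 4 lower. After auxin edgeR called 1 higher and none lower, and DESeq2 called none. Lum had 0 counts in the degron libraries. Pluripotency markers summed to 5650 to 5720 CPM in wild-type, 3600 to 4200 CPM in untreated and 2960 to 3200 CPM in auxin libraries. Of these 8 genes, edgeR and DESeq2 each called 4 higher and 2 lower in wild-type cells. After auxin edgeR called 5 of them lower and DESeq2 4. Over all genes, edgeR called 29.9% higher and 30.7% lower in wild-type cells, and 7.12% and 11.0% with a change over 2-fold. After auxin these shares were 2.56% and 1.64%. The counts of all marker lists above are to be read against these shares.

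Other components of the pathway made up 12 lists of 71 genes. After auxin, 1 of 65 tested was called higher and 2 lower, counts near the 2.56% and 1.64% of all genes, and their median log2 fold change was 0.09 against −0.0004 over all genes. Id4, the remaining member of the Id family, was called higher, from 71 and 90 counts to 165 and 184 counts (log2 fold change 1.01, SE 0.17, edgeR adjusted p = 0.00765). Genes on the opposite strand overlap Id4, and how the counting treated strand is not given in the sources used here, so the source of its reads is less certain than for Id3. Acvr1b, the type I receptor for Nodal and activin, was called lower, from 1105 and 1175 counts to 932 and 973 counts (−0.36, SE 0.07, edgeR adjusted p = 0.0161), though not by DESeq2. Tgif1, a co-repressor of Smad2, was also called lower, from 2165 and 2172 counts to 1754 and 1885 counts (−0.36, SE 0.07, edgeR adjusted p = 0.0135). Both lower calls were lost with mitochondrial scaling, with no filter and without either auxin library, and the call of Id4 was lost with no filter and without auxin replicate 2. The other 9 lists hold the remaining ligands, proteases, extracellular inhibitors, Smads with their partners, BMP receptors and antagonists and the E proteins. In them 0 genes were called in edgeR and 0 by DESeq2. At an unadjusted p under 0.05 in edgeR, 4 were higher and 2 lower, where 10.7% and 9.38% of all genes were.

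In wild-type cells, 18 of 63 tested pathway genes were called higher and 17 lower on the TMM scale, 3 and 8 of them over 2-fold. These counts lie near the shares of all genes, which were 29.9% and 30.7%, and 7.12% and 11.0% over 2-fold, and the counts of the single lists below are to be read against the same shares. The pathway genes had a median log2 fold change of −0.05 against −0.01 over all genes. On the mitochondrial scale 0 were called higher and 61 lower. Among Nodal, activin and TGF-beta ligands 3 were called higher and 2 lower of 7 tested. Inhbb, the subunit of activin B, went from 171 and 175 counts to 844 and 900 counts (log2 fold change 2.34, SE 0.09, edgeR adjusted p = 3.13e-09). Gdf3, a ligand that also uses Tdgf1, rose by 0.73 on the log2 scale (SE 0.09, edgeR adjusted p = 2.52e-05), and Tgfb2 fell by 1.28. Of 7 receptors 2 were called higher and 1 lower: the activin type II receptor Acvr2b rose from 304 and 284 counts to 602 and 599 counts (1.04), and the TGF-beta receptor Tgfbr2 fell from 328 and 269 counts to 102 and 111 counts (−1.48). Acvr1b, the most abundant gene of that list, had a log2 fold change of −0.10 that did not pass (SE 0.07, edgeR adjusted p = 0.227). Pcsk6, a protease that cleaves the Nodal precursor, rose by 0.68, and the most abundant protease of the list, Furin, had a log2 fold change of 0.14 that did not pass (edgeR adjusted p = 0.140).

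The Smad2/3 group had 1 gene called higher and 2 lower of 5. Foxh1, the DNA-binding partner of Smad2/3 at Nodal targets, fell from 712 and 713 counts to 397 and 386 counts (−0.85, SE 0.08, edgeR adjusted p = 2.77e-06), in the opposite direction to the Lefty genes, and Trim33, which binds Smad2/3, rose by 0.42. Of 9 intracellular inhibitors 5 were called higher and 1 lower, none over 2-fold. Pmepa1, a membrane protein that restrains Smad2/3, rose by 0.78 and the Smad co-repressor Ski by 0.26. The secreted Nodal antagonist Dand5 fell by 1.17, the only called gene of 4 tested extracellular inhibitors.

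Among 5 tested BMP ligands, Bmp2 fell from 107 and 139 counts to 34 and 29 counts (−1.95, SE 0.23, edgeR adjusted p = 2.38e-05) and Bmp8b from 383 and 264 counts to 83 and 98 counts (−1.83). Bmp7, the most abundant of them, had a log2 fold change of 0.22 that did not pass (edgeR adjusted p = 0.0723). Gm17244 and Ppie overlap Bmp8b on the opposite strand, so the strand caveat given for Id4 applies to its reads as well. The same holds for Tgfb2, Furin and Bmpr1a, which other genes overlap on the opposite strand. Of 4 tested BMP receptors 0 were called in edgeR, 0 by DESeq2 and 0 at an unadjusted p under 0.05, the most abundant being Bmpr1a at 0.04 (SE 0.07, edgeR adjusted p = 0.649). The BMP antagonists split into 3 higher and 3 lower of 7 in edgeR and 0 higher and 3 lower in DESeq2, and the most abundant, Twsg1, rose by 0.20. Of 4 Smad1/5/9 genes edgeR called 0 higher and 2 lower and DESeq2 called 0, and Smad5 had −0.16 and did not pass (edgeR adjusted p = 0.0611). Of 5 other BMP target genes edgeR called 1 higher, Hey1 (0.85), and 2 lower, Msx1 (−1.74) and Msx2 (−1.34), and DESeq2 called 0 higher and 2 lower. Hey1, Msx1 and Msx2 are named although they lie outside the rule for named genes. Id4, with 71 and 90 counts untreated and 81 and 76 in wild-type cells, had −0.02. Of the 3 E proteins 2 were called higher and 1 lower: Tcf3 (E2A) rose by 0.43 and Tcf12 (HEB) fell from 1529 and 1324 counts to 545 and 626 counts (−1.28, SE 0.09, edgeR adjusted p = 5.57e-07).

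**Figure D4:**
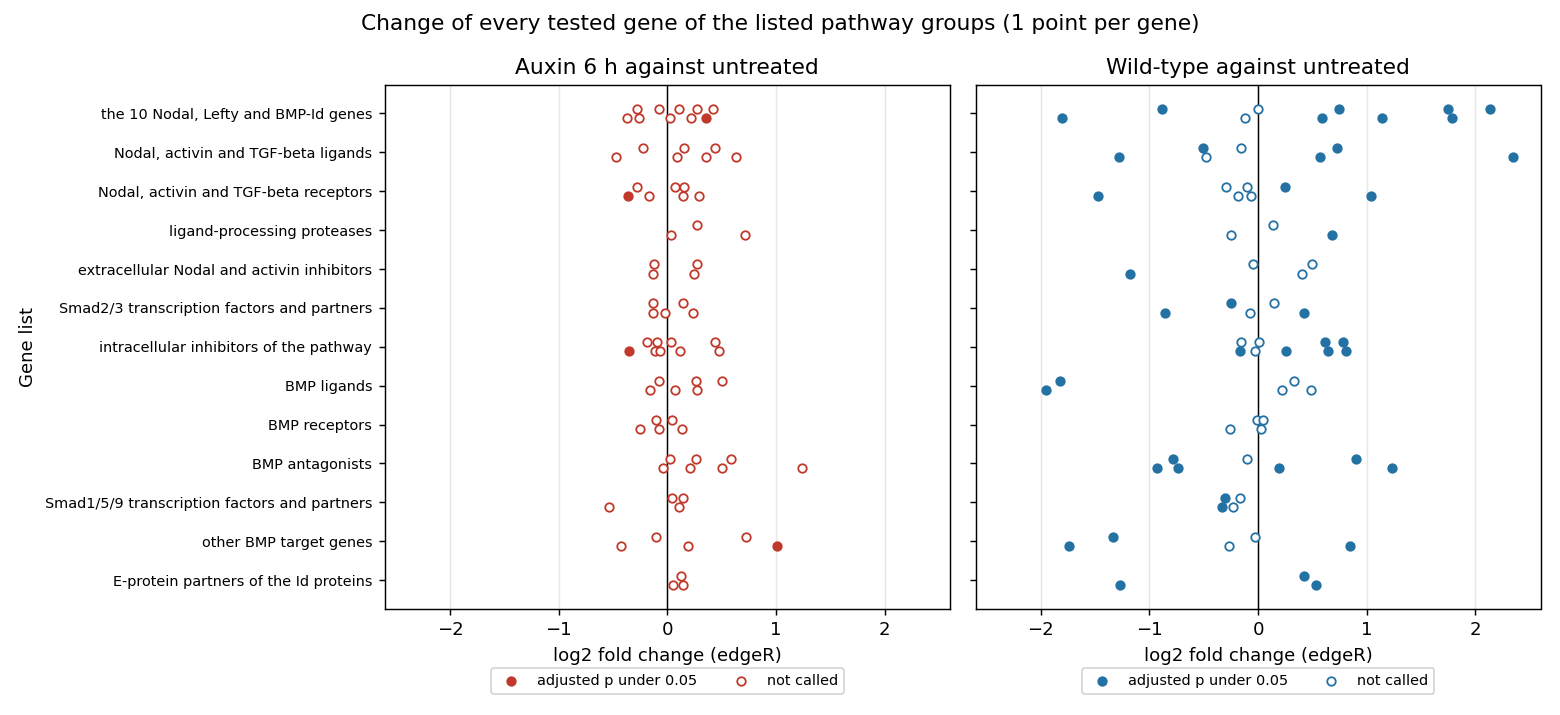
Log2 fold change (horizontal axes) of every tested gene of the 10 members and of 12 lists of other pathway genes (vertical axis, 1 point per gene, offset only for legibility), with filled points for an edgeR adjusted p under 0.05. The auxin panel shows 4 filled points, Id3, Id4, Acvr1b and Tgif1, and the wild-type panel shows calls in both directions in most lists on the TMM scale, where a scale set by mitochondrial mRNAs gives 61 lower and 0 higher calls among the 63 pathway genes.

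The genes whose levels followed those of each member most closely over the 6 libraries were found in a search of 10969 genes whose mean count reached 100, by the Euclidean distance between centred log2 CPM values. Nodal lay nearest to Tti1 (0.0639) and Mre11a (0.0698), and Tdgf1 to Lima1 (0.0812) and Cdc6 (0.0834). The nearest patterns to Lefty1 were Fam81a (0.121) and Kank4 (0.190), and to Lefty2 Egln3 (0.130) and Bnip3 (0.157), so neither Lefty gene had the other among its 2 nearest. Smad7 was closest to Ppp1r10 (0.109) and Nav2 (0.163), and Skil to A830080D01Rik (0.0587) and 1700007K13Rik (0.0698). Bmp4 was followed by Gcnt1 (0.0713) and Cdc42bpa (0.0943). For the Id genes these were Irf2bp2 (0.0573) and Scml2 (0.0623) with Id1, Mbnl3 (0.0819) and Sox11 (0.117) with Id2, and Cebpb (0.200) and Atf3 (0.220) with Id3. Id3 thus had the most distant nearest gene of the 10 members. The points share 6 libraries and one scaling, and the distances are given as a description.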

How the data were processed

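PolyA RNA-Seq of 6 libraries, 2 in each of 3 groups, was analysed. The authors aligned paired reads to mm10 with HISAT2 2.1.0 and deposited whole-number counts of 39017 genes per library, not normalized, with degron and wild-type libraries in separate tables, which were joined by gene ID. The strand setting and the annotation release are not given in the sources used here. The authors' columns of fold changes and p-values by DESeq2 were not used, nor were 2 columns of per-sample values labelled as a knockout.

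Each comparison was fitted on its own 4 libraries with edgeR 4.0.16 (quasi-likelihood test, TMM, filterByExpr with a minimum count of 10) in R 4.3.3, and p-values were adjusted by the Benjamini-Hochberg method over all genes tested. Calls required an adjusted p under 0.05. Standard errors were derived from the F statistics, and 95% intervals from the fitted degrees of freedom. Levels are CPM after TMM over 6 libraries (16467 genes kept), per kilobase of GENCODE vM21 exon where genes are compared. The script was tested on simulated data. The alternatives were DESeq2 1.42.0, its size factors, library totals, mitochondrial scaling, other filters, robust dispersions, all groups in 1 fit, the replicate number as a block and each library left out in turn.

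The members and lists were chosen with earlier results of these data known. Named pathway genes were the 6 called genes with the smallest p in each comparison and direction and the gene with the highest mean level of each list.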

Additional observations from a re-analysis of the deposited data

How the results depend on the processing

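In the wild-type comparison, the 8 called members kept their call and direction in all alternatives except mitochondrial scaling, where only Id1 and Id3 did. With that scaling 0 members were called higher and 8 lower, with 73 and 15235 of all genes. The lower ones were Nodal, Tdgf1, Smad7, Skil, Id1 and Id3, and also Bmp4 (−2.23) and Id2, which were not called in the main fit. Lefty1 (0.06) and Lefty2 were not called there. On that scale Nodal (−1.50), Lefty2 (−0.31), Tdgf1 (−0.96), Smad7 (−0.36), Skil (−1.36) and Id2 (−2.09) were reversed, and 0.477% of all calls were higher in place of 49.3%. Relative to the median gene on that scale these 6 were 0.60, 1.79, 1.15, 1.75, 0.74 and 0.01. With libraries left out in turn, 6 members were higher and 2 to 3 lower. Id2 was −0.055 with library totals and −0.015 with at least 10 counts in every library. With libraries left out it ran from −0.051 to 0.055, and Bmp4 from −0.32 to 0.11.

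The auxin calls depended more on the setting, and the cause was not tested. Members called higher numbered 1 in the main fit, 0 with mitochondrial scaling, no filter and DESeq2, and 3 with all 3 groups in 1 fit. Members called lower numbered 0 in the main fit, 1 with robust dispersions and DESeq2, and 2 with all 3 groups. Leaving out libraries gave 0 to 4 higher and 0 to 3 lower. Over all genes, 413 were higher and 264 lower in the main fit, 167 and 52 with mitochondrial scaling, 43 and 12 without a filter, and 128 and 108 with DESeq2. At least 10 counts in every library gave 246 higher, all 3 groups gave 668 lower, and leaving out libraries gave 142 to 1394 higher and 35 to 1330 lower, the upper ends without untreated replicate 1. Of the calls, 61.0% were higher in the main fit and 76.3% with mitochondrial scaling. Reversed estimates were Skil (−0.15) and Bmp4 (−0.075) with mitochondrial scaling, and with libraries left out the ranges crossed 0 for Skil (−0.076 to 0.13), Bmp4 (−0.097 to 0.34) and Lefty2 (−0.17 to 0.016).

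Equal replicate numbers do not pair these samples by any label. Deviations of same-numbered libraries correlated at 0.113 (untreated and auxin) and −0.059 (untreated and wild-type) over 10969 genes. With the replicate number as a block, 3 members were called higher after auxin (Id3, Id2, Smad7) and 3 lower (Nodal, Lefty1, Tdgf1), with 1081 and 849 of all genes, and no call of a member changed in the wild-type comparison.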
